A study of Rattus norvegicus with 12 samples.

Results

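The genes described here are 9 targets of the tumour suppressor p53 that act in growth arrest and the damage response: Cdkn1a, Mdm2, Ccng1, Bax, Btg2, Gadd45a, Plk2, Plk3 and Phlda3. Each was taken by its gene symbol, and every probe set carrying that symbol was used. The set was chosen with earlier results of these data known. They are 9 of the 13897 genes named on the array, and they had 13 of the 31099 probe sets on the Affymetrix Rat Genome 230 2.0 array. Every one of the 13 probe sets passed the filter on low signals, a mean signal above 75.5.

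Liver of Sprague-Dawley rats, a common outbred laboratory strain, was measured on 12 arrays. The 4 groups, with 3 arrays each, were normal liver (0h) and liver of rats in which cirrhosis was induced by carbon tetrachloride, sampled at 3, 6 and 9 weeks. Carbon tetrachloride is a solvent that hepatocytes convert into a reactive radical that injures them. All groups carry the same age label, 12 weeks, and all tissue came from the middle of the right lobe. The sources used here do not state dose, route, vehicle, sex or the number of animals, and normal liver was the only control. The arrays of a group are labelled technical replicates, so each p-value covers variation among arrays and not among animals, and the number of arrays limits the precision. The 3 comparisons with 0h share the same 3 control arrays.

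The p53 protein is a transcription factor that is stabilised by DNA damage and other stress and then switches on genes that halt the cell cycle, repair DNA or start apoptosis. It also switches on Mdm2, whose product marks p53 for destruction, so that the response limits itself. In liver, the best studied of these targets is Cdkn1a, which encodes p21, an inhibitor of cyclin-dependent kinases that restrains the division of hepatocytes after injury. Several of these genes also answer to signals other than p53. The arrays measured RNA and give no level of p53 protein.

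A gene was said to have risen or fallen when its limma adjusted p was under 0.05 over all 10317 genes tested and its change was at least 2-fold, which is 1 on the log2(signal + 16) scale. At 3 weeks against 0h, 1 of the 9 genes rose (Cdkn1a) and 1 fell (Plk2), where 2.92% of all genes tested rose and 1.28% fell. Of all genes that passed at 3 weeks, 69.5% rose, or 57.2% with arrays centred on their medians. That centring gave all genes a median change of -0.09, against 0.01 without it. At 6 weeks against 0h, 3 rose (Cdkn1a, Btg2 and Gadd45a) and 1 fell (Plk2), where 5.15% of all genes rose and 4.43% fell. At 9 weeks against 0h, 3 rose (Cdkn1a, Gadd45a and Phlda3) and 1 fell (Plk2), where 6.32% of all genes rose and 3.63% fell. By a moderated F test over the 3 times, 5 of the 9 changed over the course (Cdkn1a, Btg2, Gadd45a, Plk2 and Phlda3), against 14.2% of all genes.

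By the adjusted p alone, without the minimum fold, 3 of the 9 genes were higher and 3 lower at 3 weeks, where 22.5% of all genes were higher and 20.0% lower. At 6 weeks 7 were higher and 1 lower, where the shares of all genes were 30.0% and 24.4%. At 9 weeks 7 were again higher and 1 lower, where the shares were 32.9% and 22.8%. On the log2(signal + 16) scale the 9 genes had a median change of 0.08 at 3 weeks, of 0.74 at 6 weeks and of 0.79 at 9 weeks. For all genes tested the medians were 0.01, 0.03 and 0.07 at the same times.

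**Figure D1:**
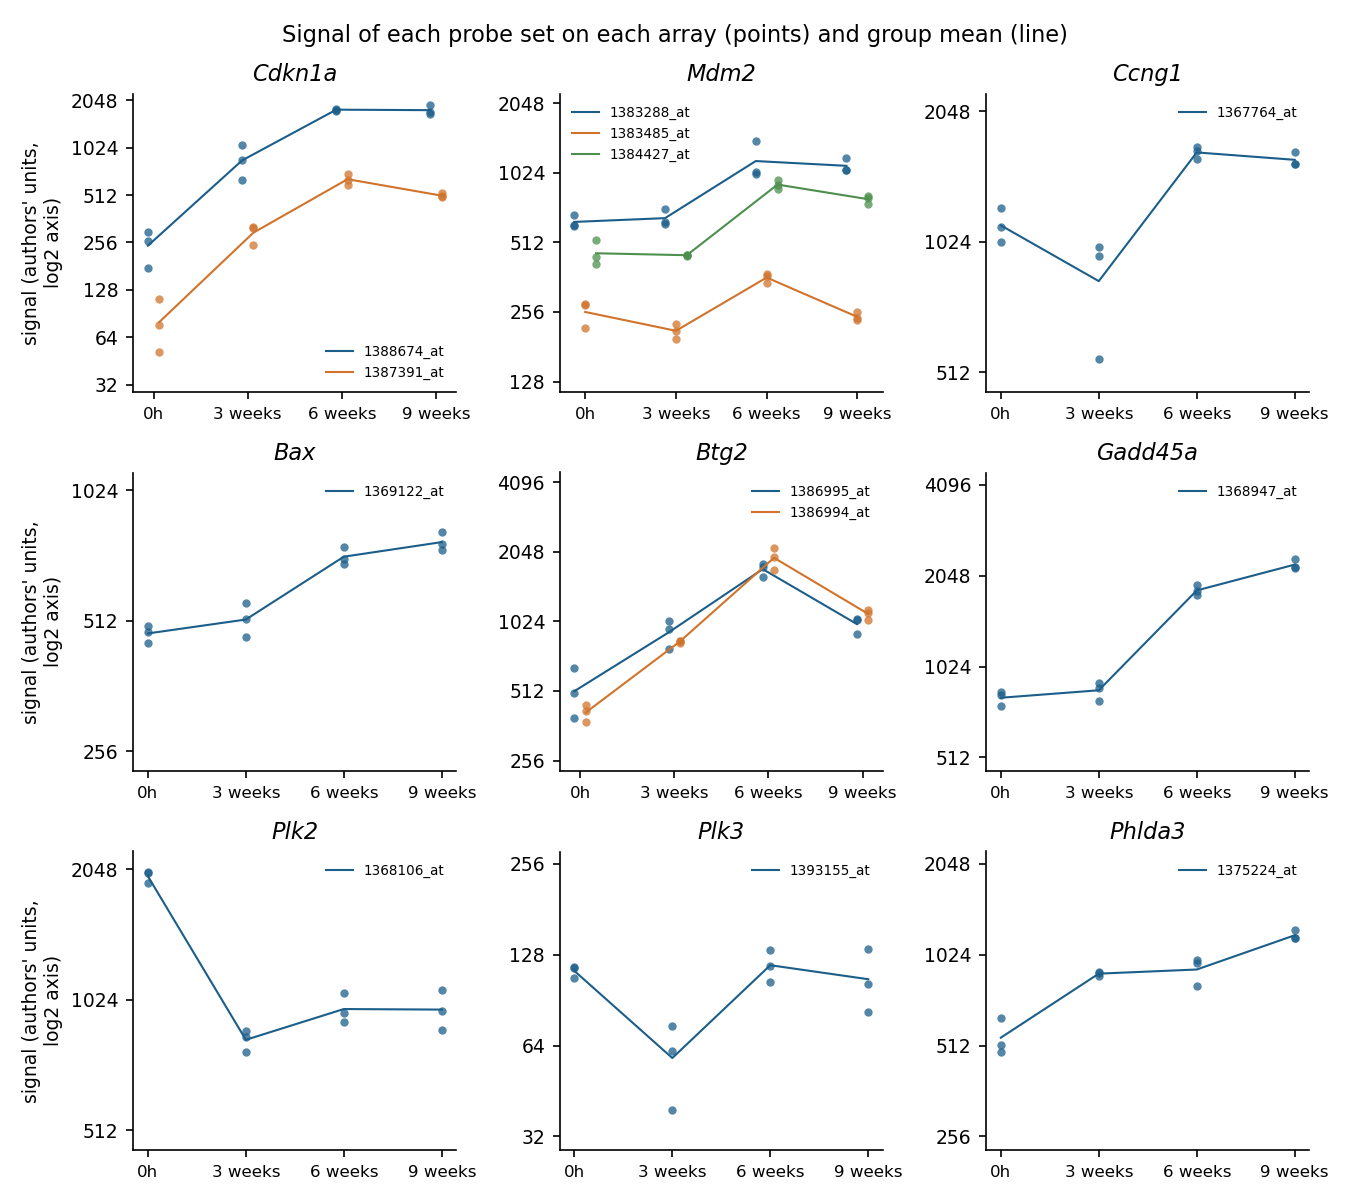
Signal of the 9 genes on each array, in the authors' scaled units on a log axis, with 0h, 3, 6 and 9 weeks from left to right. Points are arrays and lines join group means, with a colour for each probe set of a gene. The Cdkn1a probe set that stands for the gene lay between 176.0 and 296.4 at 0h and at 632.9 or more on every later array. Plk2 lay at 1905.5 or more at 0h and at 1082.1 or less on every later array.

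The promoters of 4 genes are shown, because their sequence holds a letter match of interest and because these genes moved in different ways. RefSeq promoters of the rat (build GRCr8, 250 bases before to 50 after the start that the table uses) were matched for 8 of the 9 genes. The p53 response element, a pair of adjoining decamers written 20 bases long, was searched on both strands with at most 1 letter off. It was found in 2 of the 8 promoters, Cdkn1a and Ccng1, against 24 of 33469 promoters in the table (0.0717%). In Cdkn1a it lies 201 to 182 bases before the start (chr20:7150682-7150981, + strand) and in Ccng1 242 to 223 bases before it (chr10:25684827-25685126, - strand). The capitals mark that match.
Cdkn1a: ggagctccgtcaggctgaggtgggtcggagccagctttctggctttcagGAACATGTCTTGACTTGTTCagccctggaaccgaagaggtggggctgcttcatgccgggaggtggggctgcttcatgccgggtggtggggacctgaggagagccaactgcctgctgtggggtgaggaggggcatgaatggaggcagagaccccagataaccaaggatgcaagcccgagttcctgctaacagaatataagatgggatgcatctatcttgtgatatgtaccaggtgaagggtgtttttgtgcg
Ccng1: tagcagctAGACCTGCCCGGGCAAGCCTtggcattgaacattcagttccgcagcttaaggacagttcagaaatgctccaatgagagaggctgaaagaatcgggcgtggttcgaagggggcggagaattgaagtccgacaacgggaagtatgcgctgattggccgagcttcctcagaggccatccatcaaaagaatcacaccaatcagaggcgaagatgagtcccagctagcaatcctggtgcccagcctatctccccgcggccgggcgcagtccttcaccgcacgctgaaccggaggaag

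The palindrome TGACGTCA, which CREB and ATF proteins bind, was found in 2 promoters, Btg2 and Plk2, and in 1.83% of all promoters in the table. It lies 201 to 194 bases before the start in Btg2 (chr13:48087641-48087940, - strand) and 66 to 59 bases before it in Plk2 (chr2:43702286-43702585, + strand). Capitals mark it in the sequences.
Btg2: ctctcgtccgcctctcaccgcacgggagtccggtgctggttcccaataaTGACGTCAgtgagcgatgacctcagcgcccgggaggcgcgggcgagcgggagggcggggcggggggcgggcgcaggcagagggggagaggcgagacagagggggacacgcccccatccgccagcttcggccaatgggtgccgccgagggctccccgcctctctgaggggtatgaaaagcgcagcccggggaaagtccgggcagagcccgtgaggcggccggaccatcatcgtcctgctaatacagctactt
Plk2: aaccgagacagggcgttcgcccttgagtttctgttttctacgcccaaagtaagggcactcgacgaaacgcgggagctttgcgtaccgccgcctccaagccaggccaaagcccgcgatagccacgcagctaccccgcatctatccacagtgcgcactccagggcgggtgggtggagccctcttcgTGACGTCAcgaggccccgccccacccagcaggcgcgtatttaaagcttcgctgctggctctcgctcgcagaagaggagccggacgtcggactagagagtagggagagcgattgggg
A single p53 decamer with no letter off was found in 3 promoters (Cdkn1a, Ccng1 and Gadd45a, where it lies 48 to 39 bases before the start), against 7.98% of all promoters. In Cdkn1a and Ccng1 that decamer is part of the pair already given. The GC box GGGCGG, on either strand, was found in 6 of the 8 promoters and in 33.1% of all. Such a match describes letters in a short window and does not show binding, and many p53 elements lie outside it.

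Cdkn1a changed most of the 9 genes. Its signal was 176.0, 296.4 and 260.4 at 0h, 856.0, 1055.4 and 632.9 at 3 weeks, 1757.2, 1799.7 and 1781.1 at 6 weeks, and 1672.8, 1915.0 and 1711.2 at 9 weeks. No array of a treated group overlapped the 0h arrays, and the 6-week and 9-week arrays overlapped each other. It rose 3.32-fold at 3 weeks (log2 change 1.73 ± 0.16 SE, limma adjusted p = 2.47e-07). At 6 weeks it rose 7.04-fold (2.82 ± 0.16, adjusted p = 1.87e-10), and at 9 weeks 6.98-fold (2.80 ± 0.16, adjusted p = 2.19e-10). The second probe set, 1387391_at, gave 1.74, 2.83 and 2.49. It was dimmer, at a mean of 80.0 at 0h, which is close to the filter.

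Between times, Cdkn1a rose at 6 weeks against 3 weeks, by 1.08 on the log2 scale (adjusted p = 2.74e-05), and at 9 weeks against 3 weeks, by 1.07 (adjusted p = 3.64e-05). Both calls rested on the lowest array at 3 weeks, replicate 3. Without it the steps were 0.89 and 0.88, under 2-fold, with adjusted p of 0.000142 and 0.000188. With the mean of both probe sets the step to 9 weeks was 0.91. At 9 weeks against 6 weeks the change was -0.01 (95% interval -0.36 to 0.33). By this probe set the order of the levels was therefore 0h, 3 weeks, and then 6 and 9 weeks, which did not differ beyond their spread. The second probe set rose by 1.09 at 6 weeks against 3 weeks, and at 9 weeks against 3 weeks it was higher by 0.76, short of 2-fold. At 9 weeks against 6 weeks the second probe set changed by -0.34 (95% interval -0.72 to 0.05, limma adjusted p = 0.207), with no overlap of arrays.

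Gadd45a encodes a protein that binds PCNA and stress kinases and takes part in arrest and DNA repair. Its signal was 824.4, 841.2 and 755.6 at 0h, 872.3, 900.7 and 790.1 at 3 weeks, 1907.5, 1818.3 and 1767.5 at 6 weeks, and 2172.3, 2192.2 and 2327.5 at 9 weeks. The 3-week arrays overlapped the 0h arrays, and every array at 6 and 9 weeks lay above them. At 3 weeks its change was 0.08 (95% interval -0.06 to 0.22). It rose 2.25-fold at 6 weeks (1.17 ± 0.07 SE, limma adjusted p = 1.57e-10) and 2.73-fold at 9 weeks (1.45 ± 0.07, adjusted p = 9.83e-12). It also rose at 6 weeks against 3 weeks, by 1.09, and at 9 weeks against 3 weeks, by 1.37. At 9 weeks against 6 weeks it was higher by 0.28, short of 2-fold (adjusted p = 0.00433), with no overlap of arrays.

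Btg2 encodes an antiproliferative protein that recruits an mRNA deadenylase, and it is also an immediate early gene. The signal of the probe set that stands for it, 1386995_at, was 391.2, 640.3 and 500.9 at 0h, 776.1, 946.5 and 1026.5 at 3 weeks, 1820.9, 1584.2 and 1761.1 at 6 weeks, and 1042.1, 1045.9 and 900.4 at 9 weeks. Its highest arrays were those at 6 weeks, and the 3-week and 9-week arrays overlapped. It rose 3.36-fold at 6 weeks (1.75 ± 0.14 SE, limma adjusted p = 9.48e-09). At 3 weeks the change was 0.84 and at 9 weeks 0.97, both short of 2-fold, with adjusted p of 0.000104 and 1.29e-05. At 9 weeks against 6 weeks it was lower by 0.78 (-0.78, 95% interval -1.07 to -0.49, adjusted p = 0.000402).

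The second Btg2 probe set, 1386994_at, gave larger changes: 1.0 at 3 weeks, which missed 2-fold, 2.18 at 6 weeks and 1.38 at 9 weeks, and the last 2 of these passed. By this probe set Btg2 also rose at 6 weeks against 3 weeks, by 1.18 (limma adjusted p = 6.39e-09). At 9 weeks against 3 weeks this probe set was higher by 0.39, short of 2-fold (adjusted p = 0.00148), with no overlap of arrays. Its arrays spread less at 0h, with a mean signal of 412.7 ± 35.8 against 510.8 ± 124.8 for the first (SD, n = 3). Without 0h replicate 2, the first probe set passed 2-fold at 3 weeks (1.01) and at 9 weeks (1.14), and without 9-week replicate 3 it passed at 9 weeks (1.04). With the mean of both probe sets it passed at 9 weeks (1.18).

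Mdm2, the ubiquitin ligase that limits p53, did not pass the 2-fold minimum at any time. Its brightest probe set, 1383288_at, had 608.8, 669.2 and 604.1 at 0h, 625.8, 713.3 and 615.1 at 3 weeks, 1404.5, 1033.9 and 1011.2 at 6 weeks, and 1055.4, 1046.9 and 1187.3 at 9 weeks. All arrays at 6 and 9 weeks lay above all arrays at 0h and 3 weeks. The change was 0.05 at 3 weeks (95% interval -0.18 to 0.28), 0.84 at 6 weeks (0.61 to 1.07, limma adjusted p = 4.44e-06) and 0.79 at 9 weeks (0.56 to 1.02, adjusted p = 9.38e-06). The 3 Mdm2 probe sets disagreed at 9 weeks, with changes of 0.79, 0.76 and -0.06, where the last is 1383485_at. At 6 weeks they were 0.84, 0.97 and 0.48, and the arrays of each lay above those at 0h.

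Ccng1 encodes cyclin G1, which recruits a phosphatase to Mdm2. Its signal was 1020.9, 1106.3 and 1226.9 at 0h, 995.2, 950.3 and 548.5 at 3 weeks, 1697.8, 1587.3 and 1656.5 at 6 weeks, and 1552.7, 1650.3 and 1548.1 at 9 weeks. Array 3 at 3 weeks lay far under the other arrays of that group. Against 0h the change was -0.46 at 3 weeks (limma adjusted p = 0.0202), 0.56 at 6 weeks (adjusted p = 0.00476) and 0.50 at 9 weeks (adjusted p = 0.0095), all short of 2-fold. At 6 weeks against 3 weeks it rose by 1.02 (95% interval 0.70 to 1.34, adjusted p = 2.34e-05). That call was lost without 3-week replicate 3 (0.75) and, just under 2-fold, without 6-week replicate 1 (1.0). Quantile normalization gave 0.99. Ccng1 was also higher at 9 weeks than at 3 weeks, by 0.96, and it passed 2-fold without 3-week replicate 1 (1.11) or 3-week replicate 2 (1.08) and with median centring (1.04).

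Bax encodes a pore-forming member of the Bcl2 family that opens the mitochondrial outer membrane in apoptosis. Its signal was 483.3, 498.1 and 455.7 at 0h, 561.7, 469.7 and 515.8 at 3 weeks, 758.4, 691.8 and 710.1 at 6 weeks, and 770.3, 744.8 and 819.5 at 9 weeks. The 6-week and 9-week arrays all lay above the 0h arrays. The change was 0.10 at 3 weeks (95% interval -0.08 to 0.28), 0.57 at 6 weeks (limma adjusted p = 2.48e-05) and 0.68 at 9 weeks (adjusted p = 3.59e-06). The interval at 9 weeks, 0.50 to 0.86, lay under 2-fold.

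Phlda3 encodes a small protein that competes with the kinase Akt for membrane lipid and so restrains survival signalling. Its signal was 514.0, 487.4 and 629.9 at 0h, 889.7, 900.4 and 869.8 at 3 weeks, 804.0, 959.0 and 982.3 at 6 weeks, and 1237.6, 1162.8 and 1165.1 at 9 weeks. Every array from 3 weeks on lay above those at 0h, and the 9-week arrays lay above all others. It rose 2.16-fold at 9 weeks (1.11 ± 0.09 SE, limma adjusted p = 2.82e-08). At 3 and 6 weeks it was higher by 0.70 and 0.74, short of 2-fold (adjusted p = 1.56e-05 and 4.14e-06), and the change between those times was 0.04 (95% interval -0.16 to 0.24).

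**Figure D2:**
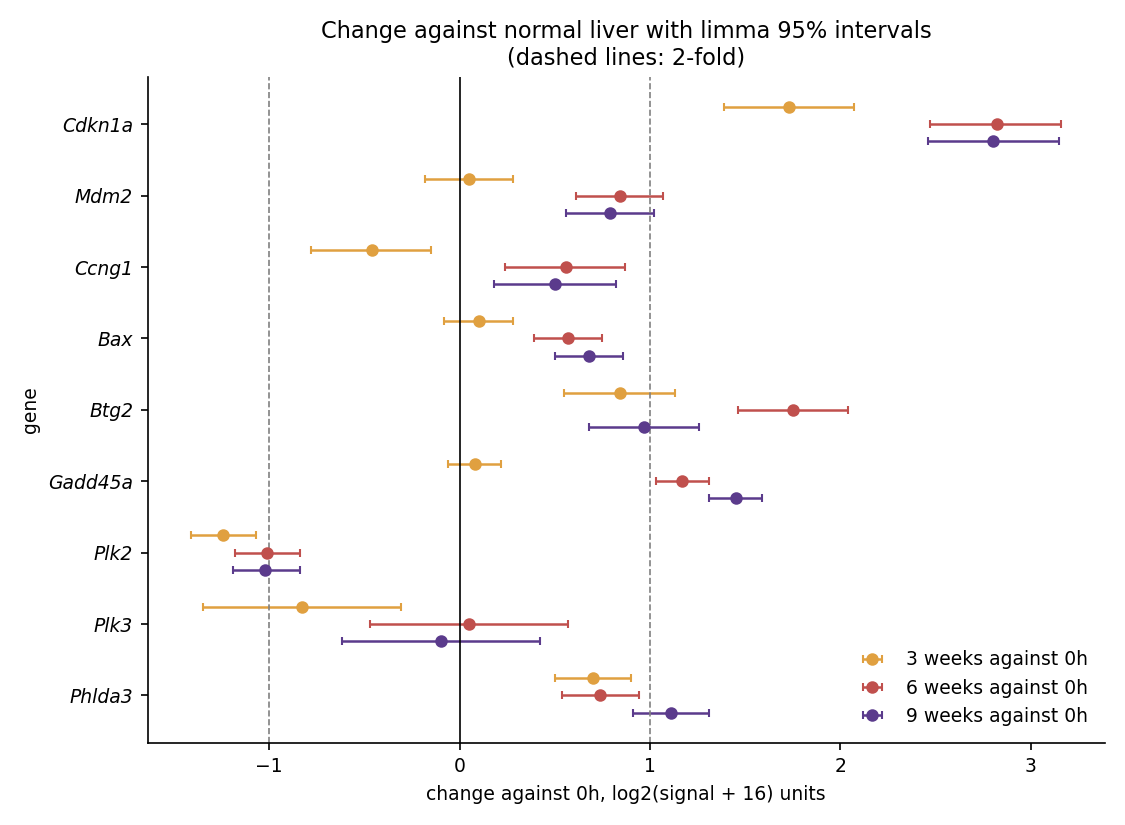
Change of each of the 9 genes against 0h on the log2(signal + 16) scale, at 3, 6 and 9 weeks. Points are limma estimates and bars their 95% intervals. All points are drawn alike, whether or not they passed the test. Cdkn1a reached 2.82 and 2.80 at 6 and 9 weeks, and Plk2 lay between -1.24 and -1.01 at all 3 times.

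Plk2 was the one gene of the 9 that fell. It encodes a polo-like kinase that is induced by serum and by p53 and acts on centrioles. Its signal was 2005.9, 2016.8 and 1905.5 at 0h, 869.6, 776.6 and 838.6 at 3 weeks, 909.1, 957.3 and 1059.8 at 6 weeks, and 871.8, 963.5 and 1082.1 at 9 weeks. No array of a treated group reached the lowest 0h array. It fell by 1.24 on the log2 scale at 3 weeks (limma adjusted p = 3.4e-09), which is 2.36-fold lower, by 1.01 at 6 weeks and by 1.02 at 9 weeks (adjusted p = 1.35e-08 at both).

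The later calls of Plk2 lay at the 2-fold limit. At 6 weeks the change missed it without 0h replicate 1 (-1.0), 0h replicate 2 (-0.99), 6-week replicate 1 (-0.96) or 6-week replicate 2 (-1.0). At 9 weeks it missed it without 9-week replicate 1 (-0.94). With a pseudocount of 64 it was -0.98 at both times. Plk2 was higher by 0.23 at 6 weeks than at 3 weeks, short of 2-fold (adjusted p = 0.0265), with no overlap of arrays.

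Plk3, a polo-like kinase that phosphorylates p53 after stress, was the dimmest of the 9. Its signal was 107.6, 115.3 and 116.7 at 0h, 61.3, 39.1 and 74.3 at 3 weeks, 117.7, 132.7 and 104.3 at 6 weeks, and 133.7, 82.6 and 102.3 at 9 weeks. The 3-week arrays lay under all others and under the filter signal of 75.5, and the arrays of the other groups overlapped. At 3 weeks it was lower by 0.83, short of 2-fold (95% interval -1.35 to -0.31, limma adjusted p = 0.0117). The changes were 0.05 at 6 weeks (-0.47 to 0.57) and -0.10 at 9 weeks (-0.62 to 0.42). At 6 weeks against 3 weeks it was higher by 0.88, and by 1.04, past 2-fold, without 3-week replicate 3.

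At 6 weeks against 3 weeks, 3 of the 9 genes rose (Cdkn1a, Ccng1 and Gadd45a) and 0 fell, where 3.21% of all genes rose and 4.31% fell. The other 6 changed by 0.04 (Phlda3) to 0.91 (Btg2), though the second Btg2 probe set, 1386994_at, rose by 1.18. At 9 weeks against 6 weeks none of the 9 passed limma's test, where 1.94% of all genes rose and 0.591% fell. In that step limma's adjusted p was under 0.05, short of 2-fold, for Btg2 at -0.78, Gadd45a at 0.28 and Phlda3 at 0.38. At 9 weeks against 3 weeks, 2 rose (Cdkn1a and Gadd45a) and 0 fell, where 3.01% of all genes rose and 2.77% fell. The medians of the 9 were 0.88, -0.01 and 0.73 over these 3 steps, and those of all genes were 0.02, 0.03 and 0.06. The steps from 3 weeks share the 3-week arrays.

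**Figure D3:**
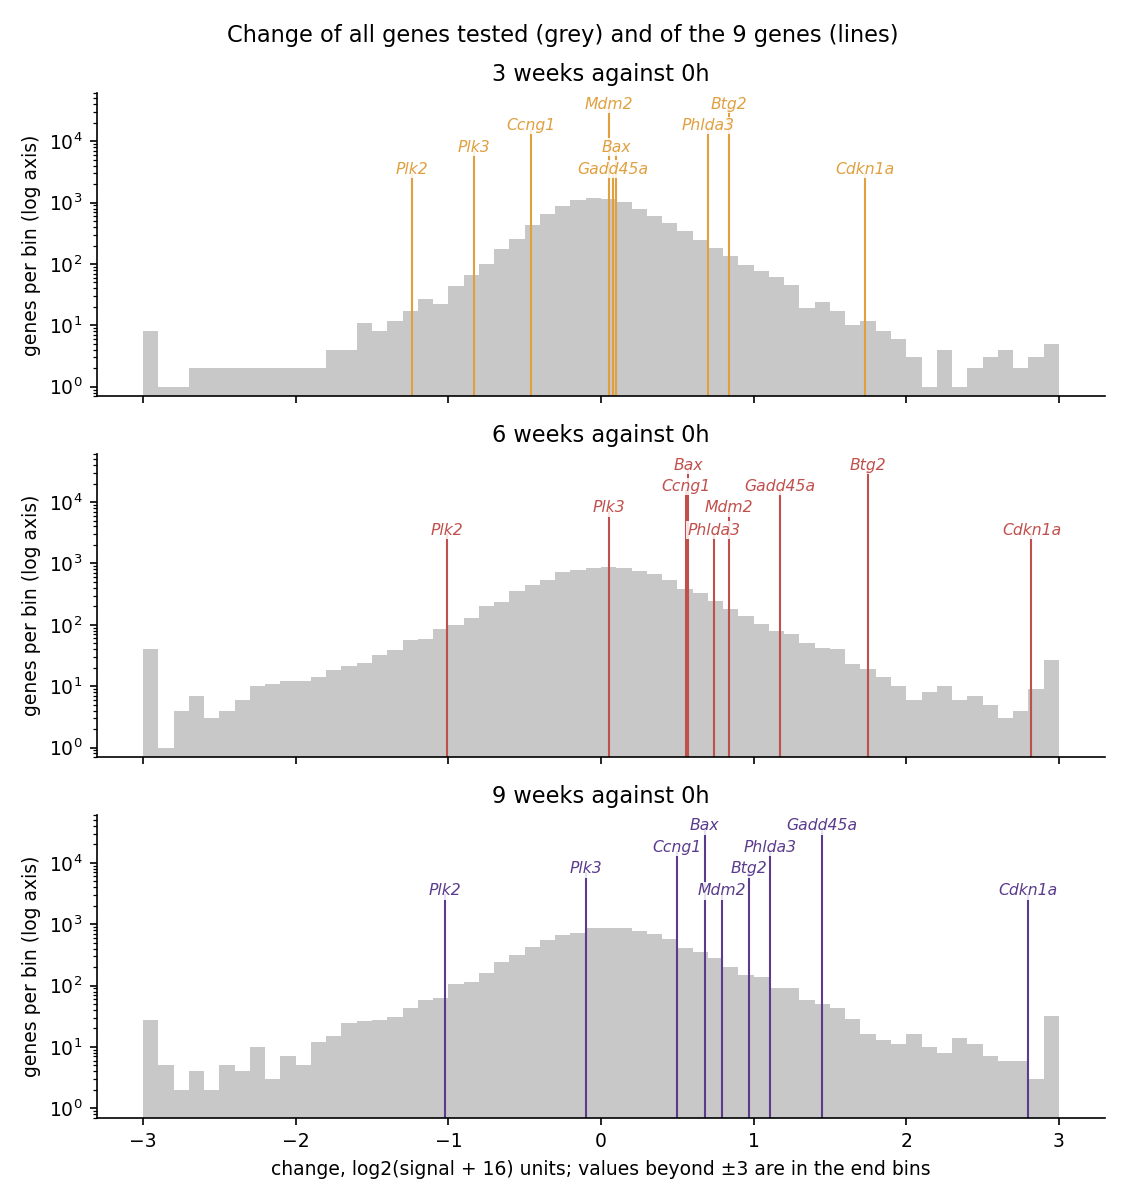
Number of genes, out of 10317, by their change against 0h on the log2(signal + 16) scale at 3, 6 and 9 weeks (grey), with the 9 genes as labelled lines. Cdkn1a lay in the far right tail at 6 and 9 weeks, at 2.82 and 2.80, while Mdm2, Ccng1 and Bax lay within 1 of 0 at each time.

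Mdm4, a relative of Mdm2 that inhibits p53, was lower by 0.43, 0.54 and 0.99 at 3, 6 and 9 weeks (-0.43, -0.54 and -0.99 on the log2 scale), short of 2-fold. At 9 weeks it passed 2-fold without 0h replicate 2 (-1.05), 9-week replicate 1 (-1.0) or 9-week replicate 2 (-1.02), and under quantile normalization (-1.04) and median centring (-1.02).

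Of the closest paralogs, Btg3, Plk1 and Bak1 passed the test at some time. Btg3, another antiproliferative protein of the family, rose at 6 weeks, by 1.90, and at 9 weeks, by 1.41 (limma adjusted p = 3.91e-11 and 2.05e-09). Btg1 changed by 0.25 at 3 weeks and by -0.23 and -0.30 at 6 and 9 weeks, and its 6-week value was 0.02 under quantile normalization. Gadd45b changed by 0.71 and 0.80 and Gadd45g by 0.49 and 0.52 at 6 and 9 weeks, all short of 2-fold, and Gadd45b reached 1.03 at 9 weeks without 0h replicate 2. Plk1, the mitotic polo-like kinase, fell at 3 weeks, by 1.33 (adjusted p = 0.000816), where its signal averaged 35.7, against 110.0 at 0h. With a pseudocount of 64 that change was -0.81. Ccng2 changed by -0.18, -0.47 and -0.26 at 3, 6 and 9 weeks. Bak1, a second pore-former of the Bcl2 family, rose at 3 weeks, by 1.15 (adjusted p = 0.000598), and missed 2-fold without 0h replicate 2 (0.83). At 9 weeks Bak1 was at 0.92, and it passed 2-fold without 0h replicate 1 (1.15) or 0h replicate 3 (1.01). Phlda2 had an adjusted p of 0.263 or more at each time, and Plk4 and Phlda1 were below the filter.

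Over 3 lists of other p53 targets, 3 of 33 measured genes passed the test at each time (9.09%), where 4.20% of all genes passed at 3 weeks, 9.58% at 6 weeks and 9.95% at 9 weeks. Of 11 measured p53 targets of apoptosis, 1 rose at 3 weeks, Aifm2 (1.13, limma adjusted p = 0.0304), and its adjusted p was 0.099 without 0h replicate 2, 0.085 without 3-week replicate 2, 0.076 without 0h replicate 1 and 0.074 without 3-week replicate 3. None of the 11 passed limma's test at 6 or 9 weeks. At 6 weeks 1 was higher and 5 lower at an unadjusted p under 0.05, and at 9 weeks 2 and 3. The share of all genes at that threshold was not computed, so no conclusion is drawn from these counts. That list's median was -0.03, -0.20 and -0.09 at 3, 6 and 9 weeks.

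Of 10 measured p53 targets in repair and metabolism, 1 fell at every time, Sesn1, a sestrin that restrains mTORC1, and 0 rose. Sesn1 changed by -1.2, -1.21 and -1.58 at 3, 6 and 9 weeks (limma adjusted p = 2.56e-06, 1.01e-06 and 4.17e-08), and the list median was -0.04, -0.14 and -0.36. With the mean of its probe sets Sesn1 was at -1.0 at 3 weeks, just short of 2-fold. Of 12 measured secreted and signalling targets, Dusp1, a phosphatase of MAP kinases, fell at 3 weeks (-1.52). Igfbp3, which binds insulin-like growth factors, fell at 6 and 9 weeks (-1.23 and -1.26), Tnfaip8 fell at 6 weeks (-1.19, or -0.85 with a pseudocount of 64) and Trim35 rose at 9 weeks (1.12). The list median was 0.00, -0.16 and -0.02.

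Of 15 measured other growth arrest genes, Btg3 was the one that rose at 6 and at 9 weeks, and 0 fell at any time. At 3 weeks none of the 15 passed limma's test, where 6 were higher and 2 lower at an unadjusted p under 0.05. The list median was 0.09, 0.39 and 0.30. The list of the Bcl2 family also holds Bag3, which is not a member of that family. Of the 10 measured genes of this list, 1 rose at 3 weeks (Bak1) and 1 at 6 weeks (Bnip3, 1.09). None passed at 9 weeks, where 7 were higher and 1 lower at an unadjusted p under 0.05. The median of this list was 0.40, 0.38 and 0.49. Of all genes, 4.2% passed the test at 3 weeks, 9.58% at 6 weeks and 9.95% at 9 weeks. No share of all genes was computed for the unadjusted p, so no conclusion is drawn from the counts at that threshold.

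Of 20 measured genes of cell division, the process that Cdkn1a restrains, 0 rose and 1 fell at 3 weeks (Plk1). At 6 weeks 8 rose and 0 fell, where 5.15% of all genes rose, and at 9 weeks 7 rose and 0 fell, where 6.32% of all genes rose. The others did not pass, among them Pcna (0.10 at both times), Mcm6 (0.13 and 0.23) and Cdk2 (0.16 and -0.19). The list median was 0.16, 0.71 and 0.66. Ccnd1, which encodes cyclin D1, had a signal of 761.3, 842.0 and 782.3 at 0h, 815.3, 785.8 and 825.6 at 3 weeks, 2829.4, 2310.4 and 2813.4 at 6 weeks, and 2670.7, 2707.2 and 3194.5 at 9 weeks. Its arrays at 6 and 9 weeks lay above all others, and it rose by 1.71 and 1.82 (limma adjusted p = 1.89e-11 and 9.27e-12).

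The ribonucleotide reductase subunit Rrm2 rose at 6 and 9 weeks, by 1.75 and 1.43. Ccna2 rose by 1.61 and 1.2, Top2a by 1.27 and 1.19, Cdk1 by 1.26 and 1.12, and Mki67, a marker of dividing cells, by 1.18 and 1.11. Aurka rose by 1.06 and 1.23 and Bub1, at 6 weeks, by 1.02. Several of these calls rested on 1 array: without 0h replicate 2 Aurka was at 0.59 and 0.76, without 6-week replicate 1 or 3 at 0.95 or 0.99 at 6 weeks, without 0h replicate 3 Cdk1 was at 0.95 at 9 weeks, and Bub1 was at 0.75 without 0h replicate 3 and 0.97 without 6-week replicate 2. Bub1 was also at 0.99 under quantile normalization and under median centring. A pseudocount of 64, which lowers the changes of dim genes, put Aurka at 0.70 and 0.83, Bub1 at 0.75, Mki67 at 0.93 and 0.88, and Ccna2, Cdk1 and Top2a at 0.86, 0.89 and 0.98 at 9 weeks. Rrm2 was at 0.84 at 9 weeks with the mean of its probe sets.

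Of 15 measured genes of the stress and immediate early response, 2 rose at 3 weeks (Myc 1.13 and Hmox1 1.12) and 1 fell (Egr1, -1.14), 6 rose at 6 weeks and 6 at 9 weeks, and 0 fell at those times. The shares of all genes that rose were 2.92%, 5.15% and 6.32%. The list median was -0.14, 0.68 and 0.56. Trib3, a pseudokinase induced by amino acid and endoplasmic reticulum stress, had a signal of 315.8, 339.2 and 343.1 at 0h, 284.1, 313.8 and 222.8 at 3 weeks, 3800.3, 3921.7 and 3983.1 at 6 weeks, and 3362.9, 3763.7 and 3427.8 at 9 weeks. Its arrays at 6 and 9 weeks lay far above all others, and it rose by 3.49 and 3.34 (limma adjusted p = 8.05e-15 and 2.03e-14).

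The transcription factor Myc rose by 2.79 at 6 weeks and 2.09 at 9 weeks, Atf3 by 2.18 and 2.86, Ddit3, which encodes CHOP, by 1.28 and 1.42, and Fos by 2.01 and 1.27. Klf6 rose at 9 weeks, by 1.45, and Jun at 6 weeks, by 1.03. The Jun call was lost without 0h replicate 1 (0.89), 0h replicate 2 (0.99) or 6-week replicate 2 (0.98), with quantile normalization (1.0) and with the mean of its probe sets (0.89). With a pseudocount of 64, Fos at 9 weeks (0.78) and Myc at 3 weeks (0.95) missed 2-fold.

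**Figure D4:**
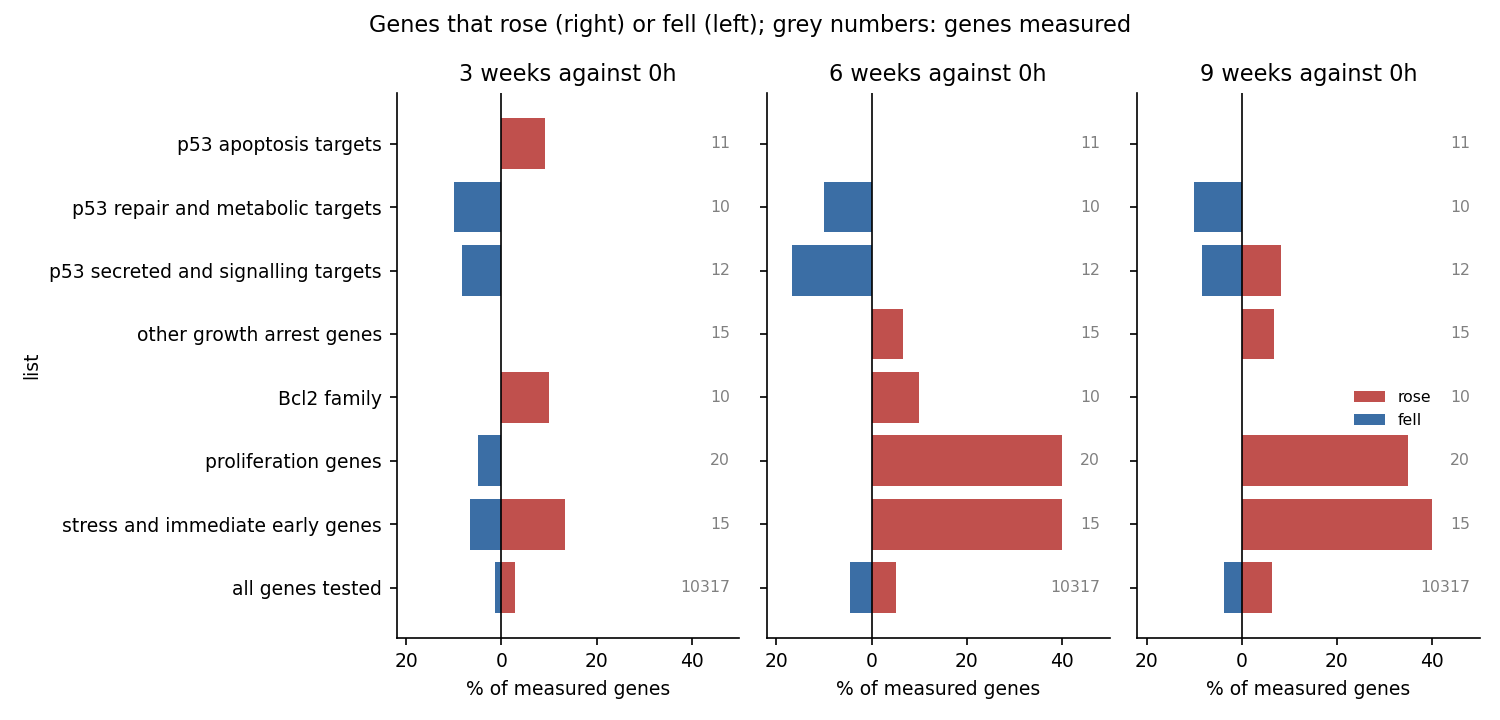
Percentage of measured genes of 7 lists, and of all 10317 genes tested, that rose (right of 0) or fell (left of 0) against 0h at 3, 6 and 9 weeks; grey numbers are the genes measured. Of the 20 proliferation genes 8 rose at 6 weeks and 7 at 9 weeks, and of the 15 stress genes 6 rose at each.

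The tissue is a mixture of cell types, and in such a sample fewer cells of a type and less RNA per cell cannot be told apart. All 10 hepatocyte markers were measured, and their summed signal was 315887.4 to 362530.2 at 0h, 307354.8 to 345114.5 at 3 weeks, 247227.1 to 284413.1 at 6 weeks and 253075.5 to 282649.9 at 9 weeks. They were by far the brightest of the marker lists. Of the 10, 1 fell at 3 and 9 weeks, Hnf4a (-1.01 and -1.98), and the list median was -0.06, -0.37 and -0.30. The 8 stellate cell and myofibroblast markers summed to 5092.2 to 5199.0 at 0h, 13042.1 to 14062.7 at 3 weeks, 7395.9 to 7643.8 at 6 weeks and 8066.1 to 8427.0 at 9 weeks. That sum is mostly Col3a1, which averaged 3534.4 at 0h, 10825.2 at 3 weeks, 5440.9 at 6 weeks and 5403.5 at 9 weeks. Of these 8, 3 rose at 3 weeks, 0 at 6 weeks and 3 at 9 weeks, with 0 falls, and the list median was 0.85, 0.57 and 0.83. The 4 of 7 bile duct markers measured summed to 5492.2 to 5561.0 at 0h, 6439.9 to 7066.5 at 3 weeks, 11004.1 to 12289.2 at 6 weeks and 12084.7 to 12431.5 at 9 weeks. That sum is mostly Krt8, a keratin that hepatocytes also express, which averaged 4114.8 at 0h, 5068.1 at 3 weeks, 9050.5 at 6 weeks and 9939.7 at 9 weeks. At 6 weeks the 4 markers did not move together: Spp1 and Krt8 rose (3.01 and 1.13) and Krt19 and Epcam were lower, short of 2-fold (-0.56 and -0.41, limma adjusted p = 0.0421 and 0.000251). At 9 weeks Spp1 and Krt8 rose (1.62 and 1.27), and Krt19 and Epcam were at 0.95 and 0.42.

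Of 8 macrophage markers 7 were measured, and they summed to 13625.4 to 14030.3 at 0h, 16100.5 to 17282.3 at 3 weeks, 14288.8 to 14669.1 at 6 weeks and 21074.5 to 21413.6 at 9 weeks. Gpnmb, 1 of the 7, rose at every time (1.45, 2.63 and 3.18) and averaged 1059.6 at 0h, 2921.4 at 3 weeks, 6619.7 at 6 weeks and 9701.7 at 9 weeks. At 6 weeks Adgre1 and Itgam fell (both -1.08), and the list median was 0.14, -0.63 and 0.14 at 3, 6 and 9 weeks, so that the median and the sum differ in direction at 6 weeks. Of 8 lymphocyte markers 7 were measured, and they summed to 3312.7 to 3419.4 at 0h, 3117.6 to 3187.1 at 3 weeks, 1170.6 to 1211.9 at 6 weeks and 3086.0 to 3274.5 at 9 weeks. Of these 7, 3 fell at 6 weeks (Gzma, Prf1 and Ccl5) and 1 at 9 weeks (Gzma), and the list median was -0.09, -0.88 and 0.05. Of 7 pancreas markers 5 were measured, summing to 22692.6 to 24065.2 at 0h, 15040.5 to 15848.1 at 3 weeks, 10489.1 to 11388.6 at 6 weeks and 12433.5 to 12758.7 at 9 weeks. Most of that sum is Amy2a3, which averaged 15968.9 at 0h, 14688.1 at 3 weeks, 10464.3 at 6 weeks and 12309.2 at 9 weeks. Cpa1, a pancreatic carboxypeptidase, averaged 6264.3 at 0h, 28.0 at 3 weeks, 34.9 at 6 weeks and 34.3 at 9 weeks. Cpa1 and Cela1 fell at all 3 times and Cpb1 at 6 and 9 weeks, while Pnlip was at 0.74, 0.37 and 0.44. The pancreas sum was highest at 0h. Markers without a value are not used here, and the part of any of these cell types in the changes of the 9 genes was not tested.

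The authors' deposited table of log2 ratios against 0h gives 9 ratios per probe set and time, made by a method the sources used here do not state. For Cdkn1a (1388674_at) the authors' deposited table had a mean ratio of 1.66, 2.91 and 2.88 at 3, 6 and 9 weeks. For Plk2 the authors' deposited table had -0.99, -1.02 and -0.89, so that its fall passed 2-fold at 6 weeks and not at 3 or 9 weeks there. For Phlda3 the authors' deposited table had 0.70, 0.69 and 1.12.

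The 1464 genes that changed over the course were ranked by root mean square difference of their 3 log2 changes against 0h from those of Cdkn1a. The same was done for Plk2. Symbols that are locus or clone names were left out of the ranking. Closest to Cdkn1a were Adgrg2 (0.151), Rem2 (0.193), Hspb1 (0.22), Slc66a3 (0.261) and Lama5 (0.276). Adgrg2 changed by 1.5, 2.87 and 2.90 at 3, 6 and 9 weeks, and Hspb1, a small heat shock protein, by 1.47, 2.71 and 3.06. Closest to Plk2 were Mvd (0.067), Nup50 (0.079), Cyp2c12 (0.081), Coq10a (0.102) and Slc16a10 (0.123). Mvd, an enzyme of cholesterol synthesis, changed by -1.29, -1.01 and -0.91, and Cyp2c12, a cytochrome P450, by -1.22, -0.89 and -0.94. These are likenesses over 4 groups of 3 arrays that share the 0h group.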

How the data were processed

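Liver RNA was measured on 12 Affymetrix Rat Genome 230 2.0 arrays, 3 per group, grouped by the labels. Per the labels' protocols, RNA was extracted with Trizol, purified with RNeasy and labelled with biotin; GCOS 2.0 is named as the program per the submitters' processing notes. The authors' workbook gives an intensity (signal) for each array, per the file headers, already scaled: after trimming 2% at each end every array averaged 500.2. The workbook also holds the authors' log2 ratios, used only where named. The series table differed from the workbook by at most 0.1. The number of sample columns left unmatched was 0.

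Signals were taken as log2(signal + 16), without renormalization. Array medians lay at 7.09 to 7.31. Arrays correlated across probe sets at 0.967 to 0.977 within groups and 0.937 to 0.969 between groups. The number of arrays limits the precision. Probe sets with a mean above the 40th percentile (18659) were kept, controls (57) left out, symbols updated with a RefSeq gene table, and the brightest probe set stood for its gene, giving 10317 genes. Genes of a list that gave no value fell below the filter or were not analysed here.

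A limma model (version 3.58.1, R 4.3.3, eBayes with trend) with a mean for each of the 4 groups was fitted to all 12 arrays, leaving 8 residual degrees of freedom, with Benjamini-Hochberg adjustment over all genes, in 6 comparisons. The fit was tested on simulated data. Probe sets of the 9 genes were also fitted among all kept probe sets. The 9 genes, the lists and the alternatives were chosen with earlier results of these data known. Named genes are the 9, their closest paralogs, Mdm4, the list genes that passed a test against 0h, and the 5 genes nearest in pattern to Cdkn1a and to Plk2. A further list, of p53 pathway regulators, is not reported here. Alternatives changed the pseudocount, filter, normalization, variance model, probe set rule, deposited table, minimum fold and replicate block, or left out each array in turn. Tables and figures were made with pandas 2.3.3, numpy 2.4.6 and matplotlib 3.10.9 under Python 3.11.15.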

Additional observations from a re-analysis of the deposited data

Results flagged for a closer look

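The change of some of these genes against 0h differed between times by limma's test of the difference itself. Cdkn1a was higher at 6 weeks than at 3 weeks by 1.08 and at 9 weeks than at 3 weeks by 1.07, on the log2 scale. Gadd45a was higher at 6 weeks than at 3 weeks by 1.09 and at 9 weeks than at 3 weeks by 1.37. Ccng1 was higher at 6 weeks than at 3 weeks by 1.02. Each of these pairs shares its 0h arrays, so the difference is that between the later times themselves. Without 3-week replicate 3 the differences of Cdkn1a (0.89 and 0.88) and Ccng1 (0.75) were under 2-fold. Gadd45a kept both of its calls under every alternative with a minimum fold.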

How the results depend on the processing

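The 9 genes gave 54 changes, each recomputed under up to 23 alternatives, for 1236 values in all. Of these, 1174 kept their direction and their side of the threshold, 36 passed it newly, 14 no longer passed it and 12 turned sign. The alternative without a minimum fold drops part of that threshold, so changes that passed there by the adjusted p alone count among the 36. Without a minimum fold the genes called were 4382, 5619 and 5746 at 3, 6 and 9 weeks against 0h, 5051 at 6 against 3 weeks, 2674 at 9 against 6 weeks, 4934 at 9 against 3 weeks and 7404 over the course; the numbers of the 9 genes called in the first 6 of these were 6, 8, 8, 8, 3 and 8. A pseudocount of 64 gave 286 genes at 3 weeks against 0h and 166 at 9 against 6 weeks, and a filter at the 60th percentile 282 and 173, against 433 and 261; fewer dim genes pass under either. The mean of probe sets left 1 of the 9 at 9 against 3 weeks. Leaving out each array gave 1 to 3 of the 9 in that comparison (1 without 3-week replicate 3), 2 to 3 at 3 weeks and 3 to 4 at 6 weeks against 0h, 3 to 5 at 9 weeks against 0h and 2 to 3 at 6 against 3 weeks.

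Changes of the 9 genes that turned sign lay near 0, and the cause was not tested. Mdm2 at 3 weeks was -0.05 with median centring, -0.07 with the mean of probe sets and -0.01 to 0.10 with an array left out, and its probe set 1384427_at -0.09 to 0.08. Gadd45a at 3 weeks was -0.02 with median centring. With an array left out, 9 against 6 weeks was -0.07 to 0.02 in Cdkn1a, -0.14 to 0.10 in Mdm2 and -0.09 to 0.07 in Plk2. Plk3 was -0.03 to 0.13 at 6 weeks and -0.26 to 0.04 at 9 weeks against 0h, and Phlda3 -0.01 to 0.13 at 6 against 3 weeks. The paralog Btg1 also turned sign: at 6 weeks it was at -0.23 in the main fit (limma adjusted p = 0.000193) and at 0.02 under quantile normalization.

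Arrays with the same replicate number correlated in their deviations at -0.039 to 0.126 and others at -0.176 to 0.132, and 6 of 12 lay closest to their own number, so the numbers were not taken to pair the arrays. With the number as a replicate block, 434, 985 and 1025 genes were called at 3, 6 and 9 weeks against 0h, and 2, 4 and 4 of the 9. The block gave 777, 261 and 598 genes, and 3, 0 and 2 of the 9, at 6 against 3, 9 against 6 and 9 against 3 weeks, and 1462 over the course. Plk3, near the filter signal, is limited by its low signal.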

Other observations

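Chek1, Gdf15 and Bcl2a1 passed the test between treated times and not against 0h. Chek1, a checkpoint kinase that acts upstream of p53, fell by 1.53 on the log2 scale at 6 weeks against 3 weeks and by 1.67 at 9 weeks against 3 weeks (limma adjusted p = 1.35e-09 and 6.84e-10). Against 0h, Chek1 was higher at 3 weeks by 0.97, just short of 2-fold (adjusted p = 8.83e-07), with no overlap of arrays. At 6 and 9 weeks it was lower than at 0h, also short of 2-fold (-0.56 and -0.70). Gdf15, a secreted stress cytokine, rose by 1.43 at 9 weeks against 3 weeks (adjusted p = 0.0075), a call that rested on the dim 3-week replicate 3: without it the change was 0.75 (adjusted p = 0.0169), and with a pseudocount of 64 it was 0.93. Bcl2a1, an antiapoptotic member of the Bcl2 family, fell by 1.14 at 6 weeks against 3 weeks and rose by 1.11 at 9 weeks against 6 weeks (adjusted p = 4.82e-08 and 2.72e-07). Dusp1, which had fallen at 3 weeks against 0h, rose by 1.40 at 6 weeks against 3 weeks. Bnip3, a mitochondrial protein induced by low oxygen, rose by 1.36 in the same step. The lymphocyte markers granzyme A (Gzma), perforin (Prf1) and Ccl5 fell at 6 weeks against 3 weeks by 2.75, 2.11 and 2.07. They rose at 9 weeks against 6 weeks by 1.75, 2.37 and 2.26. The other 4 of the 7 lymphocyte markers measured did not pass in either step.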
